A study of Mus musculus with 6 samples.

Results

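The cells described here are a group of *Pdgfra*-positive fibroblasts from the lower abdominal muscle (LAM) that carry *Gdf10*, *Cst3*, *Fmo2*, *Mgp* and *Inmt* at high levels. The deposited table lists its cells in 180 consecutive runs of 1 mouse each, which makes 30 passes through the 6 mice, and the cells of each pass are called a column group. Column group 26 holds 1107 cells in runs 151 to 156. Of these, 1014 had at least 1000 unique molecular identifiers (UMIs, 1 for each captured transcript) and are the members, out of 59236 such cells in the series and 63647 in all. The highest count among the 93 cells left out was 997 UMIs and the lowest among members was 1000. Members were chosen by column order and UMI count. The column order may itself follow groups formed from gene levels, so the choice may not be independent of those levels.

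The study compared 3 wild-type (WT) mice with 3 *Arom hum* mice, all males of the FVB/N strain aged 9 to 10 weeks. *Arom hum* mice carry a transgene of human *CYP19A1* with its own promoters, and their labels give the disease as scrotal hernia. The gene encodes aromatase, the enzyme that converts androgens to estrogens. WT mice were littermates without the transgene. The minced tissue was digested with collagenase and dispase, filtered to remove cells with many nuclei and sequenced with the 10x Genomics 3' chemistry.

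Fibroblasts of skeletal muscle build the extracellular matrix around fibers, nerves and vessels and support muscle stem cells, and several subtypes occupy different layers of the tissue. GDF10 is a secreted member of the bone morphogenetic protein branch of the TGF-beta family, whose ligands act through paired receptors and SMAD proteins. Cystatin C, the product of *Cst3*, inhibits cysteine cathepsins, and matrix Gla protein, the product of *Mgp*, restrains mineralization of soft tissue. *Fmo2* and *Inmt* encode a flavin monooxygenase and an N-methyltransferase of small molecules.

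The WT mice contributed 159, 120 and 168 members and the *Arom hum* mice 189, 247 and 131. Summed over members, each mouse held 884772 to 1228301 UMIs. The median member had 4885, 7301.5 and 5393.5 UMIs in WT and 5249, 4235 and 7133 UMIs in *Arom hum* mice. Neither depth nor the number of genes nor the mitochondrial share separated the genotypes (2-sided exact permutation tests over 6 mice, p = 0.7, 0.8 and 0.9, where 0.1 is the lowest p possible). Human *CYP19A1* had 9, 9 and 14 UMIs in the members of the *Arom hum* mice and 0 in all WT members. Barcode sequences shared with another cell of the table were seen in 12 members.

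*Arom hum* mouse 3 stood apart from the other *Arom hum* mice. Its log2 levels in the members correlated at 0.940 and 0.930 with *Arom hum* mice 1 and 2, which correlated with each other at 0.966, and at 0.950 to 0.961 with the WT mice. These correlations run over 6476 genes of shared libraries and are a description. The transgene transcript was detected in its members, as given above. Counts of the genotype comparison are therefore given with and without this mouse, and so are the genes whose call depends on it most. The mouse was picked by its levels of the same genes that were tested. Leaving out the *Arom hum* mouse nearest to WT favors more calls, so values without it are a description and not separate evidence.

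The 5 label markers separated the members from the other fibroblasts to different degrees. Levels are counts per 1000000 UMIs (CPM) of the UMIs summed over a mouse's members. *Gdf10* was at 289, 393 and 366 CPM in WT members, against 147, 209.7 and 312 CPM for *Arom hum*. Pooled over mice, its 277 CPM was the highest of the 30 column groups, followed by 22.2 CPM in column group 8, the largest fibroblast group. A *Gdf10* UMI was present in 55.4% of members, against 0.317% of cells in column group 2, which carries the endothelial gene *Pecam1* at 667 CPM. The median depth was 5280 UMIs in members and 4975 UMIs in column group 2.

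*Cst3* was also highest here, at 20920.4 CPM, but column group 23 came close with 19554 CPM. *Inmt* ranked first as well, at 200.2 CPM against 61.2 CPM in column group 8. *Mgp* ranked second, at 5733 CPM, behind column group 25 with 9412 CPM. *Fmo2* ranked seventh, at 241 CPM, and column group 20 had 1806 CPM. *Fmo2* was thus a marker among fibroblasts and not across the tissue. Every member carried a *Cst3* UMI, but so did 98.5% of cells in column group 2, so detection of *Cst3* does not identify these cells.

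**Figure D1:**
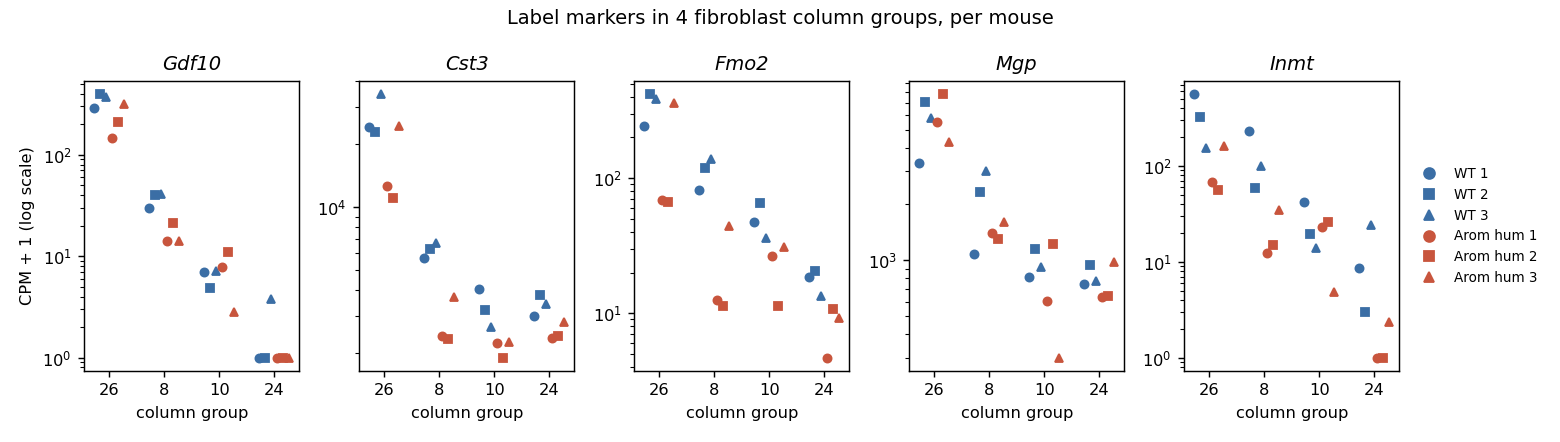
CPM + 1 on a log scale for the 5 label markers in column group 26 and in fibroblast column groups 8, 10 and 24, with 1 point per mouse (WT blue, *Arom hum* red). Every mouse of column group 26 lies above the same mouse in the 3 other groups for *Gdf10*, whose lowest value in the members is 147 CPM.

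After each member was thinned to 1000 UMIs, 35.8% of members had a UMI of at least 3 of the 5 markers and 0.394% had none. Without thinning the first share was 69.2%, against 9.25% in column group 2. The thinned share was 44.7%, 59.2% and 51.2% for WT, against 22.8%, 21.1% and 30.5% for *Arom hum*. All 3 WT mice lay above all 3 *Arom hum* mice. At this depth a missing UMI can come from sampling alone, so the shares do not show that members differ from each other.

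The general fibroblast genes were present in every mouse. All 10 genes of the fibroblast list (among them *Pdgfra*, *Col1a1*, *Dcn* and *Col3a1*) reached 10 CPM, and their sum ran from 46485 to 58748 CPM in WT and from 46800 to 56863 CPM in *Arom hum* members. *Pdgfra*, a receptor that marks muscle fibroblasts, was at 155, 248 and 178 CPM in WT, against 149, 203 and 126 CPM in *Arom hum* members. The markers of the label were therefore present, each at the levels given.

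Genes of other cell types were present at levels well below the fibroblast list. Pericyte and smooth muscle genes summed to 206 to 324 CPM over the 6 mice and Schwann cell genes to 109.6 to 229.6 CPM. Endothelial genes summed to 328 to 660 CPM in WT and 341 to 360 CPM in *Arom hum* members, with all 8 detected. Macrophage genes summed to at most 16.1 CPM in the 3 WT mice and *Arom hum* mouse 3, but to 904 CPM in *Arom hum* mouse 1 and 189 CPM in *Arom hum* mouse 2, where 8 and 5 members held 3 or more UMIs of the list. Lymphatic genes were at 429 CPM in WT mouse 2 and at most 10.7 CPM in the others. Members with 3 or more UMIs of any such list (20 for myonuclei) numbered 44, 42 and 58 in WT, against 57, 62 and 45 for *Arom hum*, most often by the pericyte, Schwann or endothelial list. T cell genes reached 29.3 CPM in *Arom hum* mouse 1, with *Cd3d* and *Trac* at 0 in all mice. Their part in the genotype results was not tested except where the values without such members are given.

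Next, the members were compared with the pooled cells of the 7 other column groups that had *Pdgfra* at 50 CPM or more and *Upk3b*, a mesothelial gene, under 50 CPM. These are 22712 cells, of which 21062 belong to column groups 8, 10 and 24 and 1650 to groups that also carry genes of sperm, T cells, mast cells or neutrophils. The genes were ranked by the lowest of the 6 ratios within a mouse, with 5 CPM added, so that a gene had to be high in every mouse. The ranking is a description without a test, because the column groups may have been formed from the same genes. Of the 25 leading genes, 24 were also among the top 25 against column groups 8, 10 and 24.

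*Gdf10* led with a log2 ratio of 3.30 to 4.51 over the mice, followed by *Cst3* with 2.01 to 2.95. *Fmo2* stood at rank 11, *Mgp* at rank 15 and *Inmt* at rank 40. *Dio2*, the deiodinase that activates thyroid hormone, was at 103 ± 45.8 CPM (SD, n = 6) in members and 18.1 ± 13.5 CPM in the other groups. *Igfbp7*, which binds insulin and insulin-like growth factors, was at 6219.9 ± 1661 CPM against 2356 ± 427 CPM.

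Other leading genes encode proteins of complement and inflammation. The complement components *C2* and *C7* were at 173 ± 53.4 and 304 ± 107 CPM, against 36.7 ± 14.6 and 98.3 ± 67.7 CPM. Both were above the other groups in every mouse. *Il6*, encoding interleukin 6, was at 965 ± 185 CPM against 218 ± 41.3 CPM. The neutrophil chemokine gene *Cxcl2* was at 1543 ± 325 CPM against 578 ± 184 CPM, and *Vcam1*, an adhesion receptor for leukocytes, was at 242 ± 93.2 CPM against 66.4 ± 44.4 CPM. *Cxcl2* reached 19422 CPM in column group 5, and fibroblast column group 24 had 4172 CPM, so it led against the pooled fibroblasts and not against each group.

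The remaining leading genes had varied functions. *Acp5* and *Gpnmb*, best known from osteoclasts and macrophages, were at 227 ± 22.3 and 134 ± 28.4 CPM. *Acp5* ran from 208 to 267 CPM over the mice, and whether macrophage RNA added to it was not tested. *Pltp* encodes the phospholipid transfer protein, *Cygb* the globin cytoglobin and *Fth1* the heavy chain of ferritin. *Clec11a* encodes a secreted lectin that acts on bone.

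**Figure D2:**
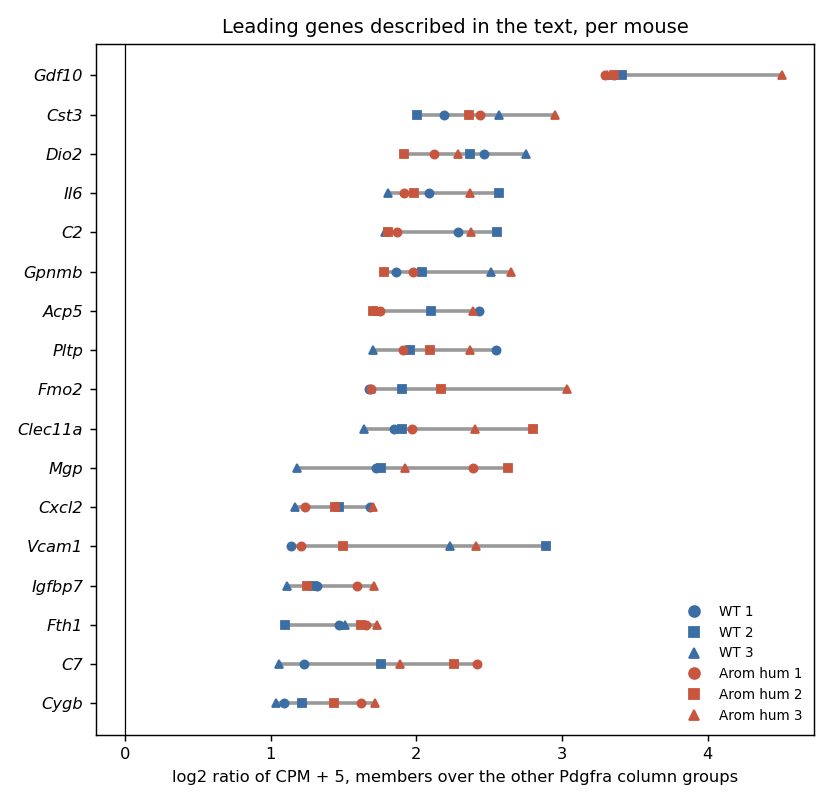
The log2 ratio of CPM + 5 in the members over the pooled other *Pdgfra* column groups for the leading genes that the text describes, with 1 point per mouse and a gray line from the lowest to the highest mouse. All ratios lie above 1, and *Gdf10* is apart from the rest at 3.30 or more.

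In the opposite direction, the members held little of several genes of the list for *Esr1* hi hernia-associated fibroblasts, which the study chose on these mice. The list was not absent, since 12 of its 15 genes reached 10 CPM, with sums of 1307 to 1557 CPM in WT and 2214 to 3550.4 CPM in *Arom hum* members. *Ren1*, which encodes renin, was at 235 ± 247 CPM against 5685 ± 4643 CPM, and *Pnoc*, the precursor of nociceptin, at 150.0 ± 246 CPM against 3030.0 ± 1831 CPM. *Nppc*, encoding C-type natriuretic peptide, was at 23.6 ± 38.4 CPM against 484 ± 499.5 CPM. For these 3 the standard deviation exceeded the mean, and the highest value lay in *Arom hum* mouse 1 or 2. *Thbs4*, a matrix protein of tendon and muscle, was at 78.3 ± 77.1 CPM against 780.2 ± 242 CPM. *Esr1*, the estrogen receptor gene, was at 20.2 CPM over all members, at 25.8 CPM in column group 8 and at 216 CPM in column group 10. It was chosen for mention after its values were seen.

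The share of the population was compared between genotypes. Of cells with at least 1000 UMIs, members made up 1.70%, 1.25% and 2.24% in WT, against 1.67%, 1.90% and 1.55% for *Arom hum*. The means were 1.73 ± 0.494% and 1.71 ± 0.178% (SD, n = 3), and the groups overlapped (2-sided exact permutation test, p = 0.9). As a share of the *Pdgfra* column groups, members were 4.31%, 4.46% and 9.51% in WT, against 3.76%, 3.54% and 3.66% for *Arom hum*. Here the groups did not overlap, and p = 0.1 in the same exact permutation test is the lowest it can give. The second share also depends on the number of other fibroblasts, and WT mouse 3 stood far above the rest.

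The genotypes were then compared on UMI counts summed per mouse over the members, with edgeR's quasi-likelihood test and Benjamini-Hochberg adjustment. Of 6476 genes tested, 2 were called at an adjusted p of 0.05, which is 0.0309% of them, and both were higher in *Arom hum* members. In the lower direction edgeR called 0 genes, while 405 had an unadjusted p under 0.05 and DESeq2 called 18. With no filter on low counts edgeR called 121 genes lower and 233 higher. Leaving out *Arom hum* mouse 3 raised the calls to 413 of 7012 genes (5.89%), of which 237 were higher (3.38%) and 176 lower (2.51%), and leaving out WT mouse 2 or WT mouse 3 brought them to 0, with 631 and 729 genes at an unadjusted p under 0.05.

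*Cxcl14*, a chemokine gene also expressed by fibroblasts within muscle, was at 444, 359.7 and 223 CPM in WT, against 1946, 2121 and 1393 CPM in *Arom hum* members, after edgeR's normalization. Every *Arom hum* mouse lay above every WT mouse, mouse 3 included. The log2 fold change in edgeR was 2.41 ± 0.28 (SE, adjusted p = 0.0277) and 2.57 without *Arom hum* mouse 3 (adjusted p = 3.38e-04). *Slpi*, an inhibitor of serine proteases released by leukocytes, was at 4.84, 0 and 2.96 CPM in WT, against 120.0, 537 and 141 CPM in *Arom hum* members. WT members held 7 UMIs of it in total and *Arom hum* members 946. Its log2 fold change in edgeR was 6.61 ± 0.82 (adjusted p = 0.0291) and 6.91 without *Arom hum* mouse 3 (adjusted p = 4.21e-04). *Cxcl14* was called in 11 of 15 alternative settings and *Slpi* in 11 of the 14 that tested it. In *Arom hum* mice 2 and 3, most *Slpi* UMIs lay in members that also held 3 or more UMIs of another cell type's list, and in mouse 1 most did not. Without these members, which numbered 57, 62 and 45 in the *Arom hum* mice, 108 of 145, 35 of 660 and 9 of 141 UMIs remained in mice 1, 2 and 3, at 167, 45.4 and 16.7 CPM, against 4 UMIs in WT. The mice still did not overlap, but *Slpi* had too few UMIs for the filter and was not tested. *Cxcl14* was at 1961, 2129 and 1452 CPM without them, close to its levels in all members.

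Since these are the genes that passed the test, the 250 bases before their start sites are shown, 5′ to 3′ along each gene, from RefSeq (GRCm38.p6). *Cxcl14* lies on the minus strand at chr13:56296552-56296801 and *Slpi* on the minus strand at chr2:164356508-164356757. Both strands were searched for the full estrogen response element, its half-site (AGGTCA), an AP-1 site (TGACTCA) and an NF-kB site, and matches are in capitals.
Cxcl14: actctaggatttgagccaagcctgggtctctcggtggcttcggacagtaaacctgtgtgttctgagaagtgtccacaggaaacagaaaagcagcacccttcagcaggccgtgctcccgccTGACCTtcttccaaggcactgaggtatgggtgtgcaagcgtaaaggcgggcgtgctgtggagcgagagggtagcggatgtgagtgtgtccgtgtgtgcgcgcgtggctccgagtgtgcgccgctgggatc
Slpi: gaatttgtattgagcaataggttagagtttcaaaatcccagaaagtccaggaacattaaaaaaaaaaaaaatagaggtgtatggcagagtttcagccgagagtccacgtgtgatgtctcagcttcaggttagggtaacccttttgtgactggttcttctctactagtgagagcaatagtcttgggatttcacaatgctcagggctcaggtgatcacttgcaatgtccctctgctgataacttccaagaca
The *Cxcl14* window held 1 half-site, on the minus strand of the gene, and the *Slpi* window none of the 4 motifs. Of the 5089 promoters of tested genes in the table, 9.88% held a half-site, 2.83% an AP-1 site, 0.157% an NF-kB site and 0 the full element. A match is a run of letters and says nothing about binding.

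Because fewer than 5 genes were called in a direction, the 10 with the lowest p in each are given by their values. All 20 had mice that did not overlap between genotypes, as did 8.48% of tested genes in the higher and 8.91% in the lower direction. *Inhba*, which encodes the activin A subunit, was at 9.69, 9.40 and 4.93 CPM in WT, against 151, 143 and 36.0 CPM in *Arom hum* members (edgeR adjusted p = 0.0898, and 1.23e-05 without *Arom hum* mouse 3). *Thbs4* was at 30.3, 2.35 and 2.96 CPM in WT, against 171, 107 and 159.8 CPM in *Arom hum* members (adjusted p = 0.139). Unlike *Inhba*, *Thbs4* in *Arom hum* mouse 3 lay between the other *Arom hum* mice.

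*Col16a1*, a fibril-associated collagen, averaged 93.9 ± 2.73 CPM in WT, against 202 ± 41.9 CPM in *Arom hum* members (SD, n = 3). *Mrc2*, an endocytic collagen receptor, averaged 52.9 ± 5.09 and 104 ± 3.35 CPM in that order, and *Dbi*, an acyl-CoA binding protein, 519 ± 91.4 and 1278 ± 369 CPM. None of these was called. *Larp4b*, *Hist1h2bc* and *Arl4c* had log2 fold changes of 1.45, 1.86 and 3.81. Without *Arom hum* mouse 3, all 10 had an adjusted p of 0.0114 or lower in edgeR. They were picked by p in the same mice, and that setting called 413 genes, so this is no separate evidence.

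In the lower direction, *Cish*, a feedback inhibitor of cytokine signaling through STAT5, was at 37.5, 43.5 and 31.6 CPM in WT, against 4.14, 7.33 and 13.98 CPM in *Arom hum* members (log2 fold change -2.17 ± 0.37, edgeR adjusted p = 0.139). *Id1*, a direct target of bone morphogenetic protein signaling, was at 46.0, 65.8 and 70.0 CPM, against 20.7, 29.3 and 21.0 CPM (-1.35 ± 0.24, edgeR adjusted p = 0.139). An *Id1* UMI was present in 12.7% of members and in 91.2% of cells in column group 2. Of 7 endothelial genes tested in the members, 0 were called and 1 had a positive log2 fold change, with a median of -0.75. Whether endothelial RNA added to the *Id1* values was not tested. *Cavin2*, a caveola protein, averaged 30.7 ± 8.56 and 9.47 ± 2.18 CPM, and *Pcna*, the DNA polymerase clamp, had a log2 fold change of -1.07 ± 0.20. The others were *Mzt2*, *Amy1*, *Mid1ip1*, *Gjc1*, *Ifi203* and *Tmpo*, with log2 fold changes of -1.75 to -1.18. All 10 had an adjusted p of 0.036 or lower in edgeR when *Arom hum* mouse 3 was left out. As they were picked by p in the same mice, this is no separate evidence.

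**Figure D3:**
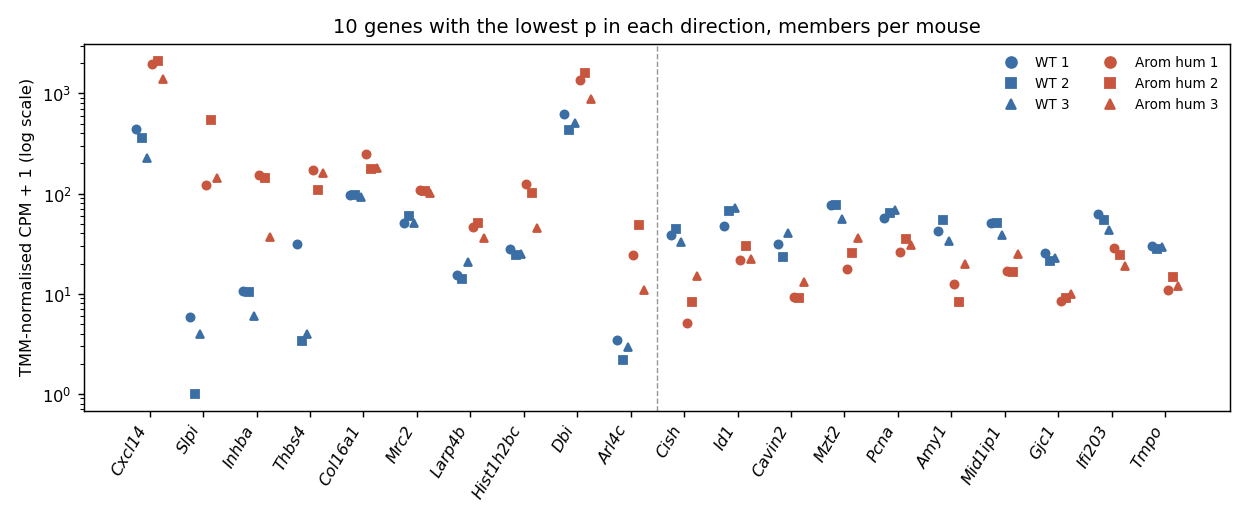
Normalized CPM + 1 on a log scale in the members of each mouse for the 10 genes with the lowest p in the higher direction (left of the dashed line) and in the lower direction (right). *Cxcl14* and *Slpi* are the 2 called genes, and *Arom hum* mouse 3 (red triangle) lies nearer to WT than the other *Arom hum* mice for *Inhba*, *Hist1h2bc* and *Dbi*.

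None of the 5 label markers was called between genotypes. *Gdf10* had a log2 fold change of -0.71 ± 0.26 (edgeR adjusted p = 0.291), with -1.03 without *Arom hum* mouse 3 (adjusted p = 0.0189). *Cst3* had -0.82 ± 0.32 (adjusted p = 0.326) and -1.26 without that mouse (adjusted p = 0.0119). *Fmo2* was at 263, 434 and 393 CPM in WT, against 68.7, 65.1 and 357 CPM in *Arom hum* members. For *Fmo2*, mouse 3 lay within the WT range and the other *Arom hum* mice below it, and the log2 fold change was -1.16 ± 0.56 (adjusted p = 0.411) with it and -2.45 without it (adjusted p = 4.23e-04). *Inmt* was at 603, 335 and 156 CPM in WT, against 68.7, 54.5 and 161 CPM in *Arom hum* members (-1.95 ± 0.50, adjusted p = 0.176, and -2.57 with adjusted p = 0.00741 without mouse 3). Without that mouse 4 of the 5 were thus called lower, where 2.51% of all genes were. *Mgp* had a log2 fold change of 0.07 ± 0.30. In the other *Pdgfra* column groups, with no mouse left out, the same 4 were called lower by edgeR (879 of 14133 genes were). The median log2 fold change over the 5 was -1.31 there and -0.82 in the members. Lower levels of these 4 markers in *Arom hum* mice were therefore not confined to the members. Over the 25 leading genes 0 were called by edgeR (0.0309% of all genes were), and 5 were called lower and 1 higher without *Arom hum* mouse 3 (2.51% and 3.38% of all genes). Their median log2 fold change was -0.19 against 0.00352 over all genes tested.

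For the pathways, genes were grouped by lists, and a list is described by its counts and its median. The 48 genes of the TGF-beta and BMP list cover ligands, receptors, SMADs, targets and inhibitors. Of the 38 tested, 0 were called, 6 lay higher and 6 lower in all *Arom hum* mice (8.48% and 8.91% of all genes did), and the median log2 fold change was -0.16. Without *Arom hum* mouse 3, 4 of 39 were called higher and 4 lower (3.38% and 2.51% of all genes were). The target gene *Id3* was at 2865, 2915 and 2939.7 CPM in WT, against 2214, 1825 and 2561 CPM in *Arom hum* members (-0.40 ± 0.19, edgeR adjusted p = 0.402). The WT and *Arom hum* mice did not overlap for *Id3*. The extracellular antagonists *Fstl1* and *Fst* had log2 fold changes of 0.49 ± 0.19 and -0.42 ± 0.27.

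Immediate-early and stress genes respond quickly to growth factors and also to tissue dissociation. Of 26 tested, 0 were called, 13 lay below WT in all *Arom hum* mice, where 8.91% of all genes did, and the median was -0.54. *Junb* was at 5234, 5331 and 4808 CPM in WT, against 2693, 2165 and 4043 CPM in *Arom hum* members (-0.79 ± 0.24, edgeR adjusted p = 0.223, and 0.011 without mouse 3). *Jund* and *Klf4* had -0.39 ± 0.17 and -0.44 ± 0.19, and *Ier3* had 0.09 ± 0.25. Without *Arom hum* mouse 3, 11 of 26 were called lower and 1 higher (2.51% and 3.38% of all genes were). The metallothioneins *Mt1* and *Mt2*, which bind zinc and respond to stress and glucocorticoids, had -0.74 ± 0.26 and -0.53 ± 0.20. In the xenobiotic and redox list that holds them, 7 of 27 genes lay lower and 1 higher in all *Arom hum* mice (8.91% and 8.48% of all genes did), with a median of -0.20. Without mouse 3, 4 of 29 were called higher and 6 lower (3.38% and 2.51% of all genes were).

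Of 44 structural matrix genes, 0 were called and the median was 0.39. In all *Arom hum* mice 13 lay above WT and 3 below (8.48% and 8.91% of all genes did). When *Arom hum* mouse 3 was left out, 11 were called higher and 4 lower (3.38% and 2.51% of all genes were). *Col3a1*, a fibrillar collagen, averaged 8130.2 ± 690.1 CPM in WT, against 11369 ± 2843 CPM in *Arom hum* members (0.48 ± 0.23, edgeR adjusted p = 0.405). *Col1a2* had 0.36 ± 0.21, and *Dcn*, a small proteoglycan that binds collagen, had -0.64 ± 0.25. In the adventitial fibroblast list, 0 of 9 were called, 4 lay above WT in all *Arom hum* mice and the median was 0.74, and 4 of 9 were called higher without mouse 3. Its member *Pi16* was at 811, 622 and 649.9 CPM in WT, against 1449.9, 1244 and 1091 CPM in *Arom hum* members (0.86 ± 0.19, adjusted p = 0.154, and 0.0173 without mouse 3).

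The study chose several lists wholly or in part on these same mice, so their direction is not independent evidence. Of the 15 fibrosis genes tested, 0 were called, 6 lay above WT in all *Arom hum* mice (8.48% of all genes did) and the median was 1.54. Without *Arom hum* mouse 3, 12 of 16 were called higher (3.38% of all genes were). *Lbp*, which binds bacterial lipopolysaccharide, was at 815, 632 and 540.4 CPM in WT, against 2594, 2299 and 988 CPM in *Arom hum* members (1.57 ± 0.33, edgeR adjusted p = 0.147, and 7.22e-04 without mouse 3). *Timp1*, an inhibitor of matrix metalloproteinases, was at 511, 366 and 334 CPM, against 1701, 1388 and 432 CPM. For *Timp1*, *Arom hum* mouse 3 lay within the WT range. Of 12 estrogen-response genes, 0 were called, 6 lay above WT in all *Arom hum* mice and the median was 0.92. Without mouse 3, 7 of 14 were called higher, with a median of 1.23. Its 4 most abundant members *Igfbp4*, *Rbp4*, *Cilp* and *Igfbp5* had 1.43 ± 0.30, -0.38 ± 0.40, 1.09 ± 0.32 and 0.02 ± 0.37, and 1.69, -0.83, 1.10 and -0.20 without mouse 3. The summed level of the *Mmp3* hi fibroblast list was 2609 to 4160 CPM in WT, 11768 and 12850 CPM in *Arom hum* mice 1 and 2, and 3611 CPM in mouse 3.

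**Figure D4:**
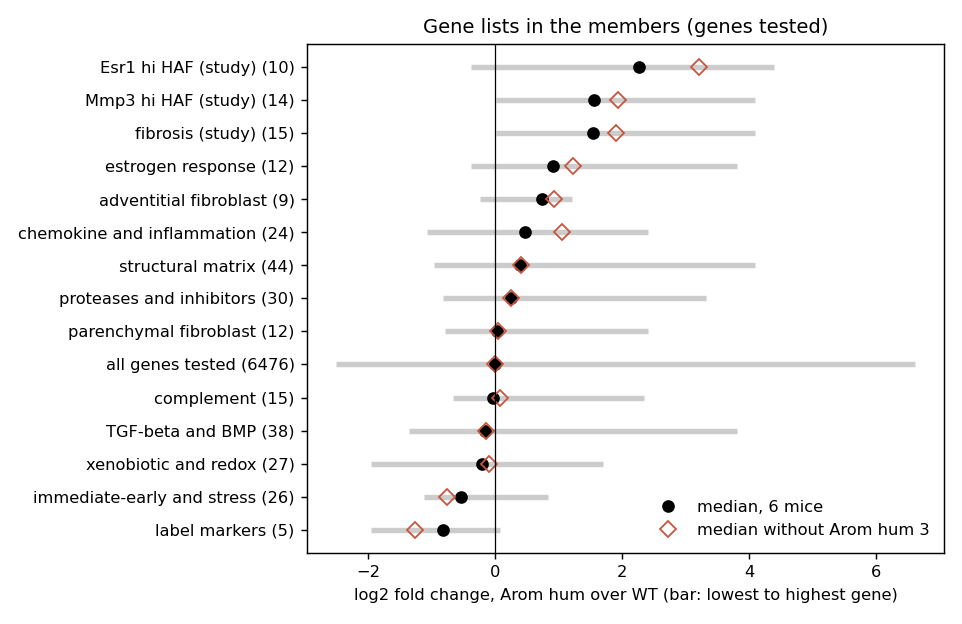
Log2 fold changes of *Arom hum* over WT members by gene list, with the number of genes tested. Bars run from the lowest to the highest gene, black points are medians over 6 mice and red diamonds are medians without *Arom hum* mouse 3. HAF stands for hernia-associated fibroblast, a name the study gave to certain fibroblast clusters found in both genotypes. The lists chosen by the study have the highest medians, from 0.92 to 2.26, and all genes tested have 0.00352.

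Of 24 chemokine and inflammation genes tested, only *Cxcl14* was called (0.0309% of all genes were). In all *Arom hum* mice 3 lay above WT and 4 below (8.48% and 8.91% of all genes did). Without *Arom hum* mouse 3, 11 of 28 were called higher and 2 lower (3.38% and 2.51% of all genes were). *Ccl2*, a monocyte chemokine gene, was at 5128, 7043 and 5336 CPM in WT, against 11758, 8911 and 2428 CPM in *Arom hum* members. The highest and the lowest mouse were both *Arom hum*. *Cxcl1* and *Ccl7* had log2 fold changes of -0.52 ± 0.24 and 0.30 ± 0.34. In the complement list 0 of 15 genes were called and the median was -0.03, and without mouse 3, 5 were called higher and 1 lower. *C3*, the central complement component, was at 1329.8, 765 and 507 CPM in WT, against 2822, 2702 and 725 CPM in *Arom hum* members, with a log2 fold change of 1.27 ± 0.48 (edgeR adjusted p = 0.31) and 1.67 without mouse 3 (adjusted p = 0.0101). *Serping1*, the C1 inhibitor, had -0.06 ± 0.27.

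To ask where the genotype effect in the members differed from that in other fibroblasts, both groups were fitted together with the mouse as a block. Of 12293 genes, 82 had a different effect at an adjusted p of 0.05 in edgeR's quasi-likelihood test (0.667%), 51 more positive in the members (0.415%) and 31 more negative (0.252%). In the other groups fitted alone, 1041 of 14133 genes were called higher in *Arom hum* mice and 879 lower. Of the 82 genes, 22 were called higher in *Arom hum* mice in the other groups and had a negative difference. A further 8 were called lower in the other groups and had a positive difference, and 52 had no call in the other groups. Against column groups 8, 10 and 24 together, which leaves out groups with genes of other cell types, 69 of the 82 were called again. These groups hold 21062 of the 22712 pooled cells, so that fit reuses most of the same counts and is no separate evidence. Column group 8 alone gave 17 of the 82 again, column group 10 alone 38 and column group 24 alone, with 415 cells, 4. Without possible doublets among the members 60 were called again, and 0 of the 82 were called in every alternative that tested them. The pooled groups differ in make-up between genotypes, with 483, 258 and 172 cells of column group 10 in WT, against 1361, 1748 and 724 for *Arom hum*, and 2758, 1969 and 1166 cells of column group 8, against 3105, 4552 and 2351. A change within these fibroblasts and a shift between their column groups cannot be told apart in the pooled fit. For 5 of the 82 genes WT members were at 0, among them *Tyrobp* of the macrophage list, *Cd52* of the T cell list and *Il1b*. The 51 also included *Cd74*, *H2-Aa* and *H2-Ab1*. All of these were highest in *Arom hum* mice 1 and 2, where the macrophage list was also highest. *H2-Aa*, for example, was at 135, 37.0 and 0 CPM in *Arom hum* members. Whether leukocyte RNA added to these differences was not tested. Without *Arom hum* mouse 3 the count of genes with a different effect was 266 and without WT mouse 2 it was 38.

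CPM in this fit are normalized over both groups and differ slightly from those above. *Comp*, a cartilage and tendon matrix protein, was at 219, 262 and 247 CPM in WT, against 148, 72.2 and 388 CPM in *Arom hum* members. In the other groups it was at 105, 273 and 226 CPM and 24.6, 12.1 and 73.5 CPM. All WT mice lay above all *Arom hum* mice in the other groups, and the genotypes overlapped in the members. The difference of log2 fold changes in edgeR was 2.16 ± 0.22 (adjusted p = 2.89e-05). *Thbs4*, of the same family, had means of 13.0 and 161 CPM in WT and *Arom hum* members, and of 698 and 687 CPM elsewhere (3.73 ± 0.47, edgeR adjusted p = 3.58e-04). Both are in the tenocyte list, where 6 of 13 genes had a more positive and 0 a more negative difference (0.415% and 0.252% of all genes did). In the other groups that list had a median log2 fold change of -1.23, and 2 of its 13 genes were called lower (879 of 14133 genes were). *Sbsn* had a difference of 2.71 ± 0.38, with means of 12.4 and 138 CPM in members. *Abca8b*, a lipid transporter, had 1.69 ± 0.24, with means of 84.7 and 33.9 CPM in the other groups and 32.9 and 40.0 CPM in members.

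The 4 of these 10 genes with a negative difference were all higher in WT members than in the other groups of WT mice. *Timp1* was at 559, 388 and 368 CPM in WT, against 1874, 1539 and 475 CPM in *Arom hum* members. In the other groups it was at 141, 133 and 139 CPM and 1373, 862 and 345 CPM. The difference in edgeR was -1.07 ± 0.16 (adjusted p = 0.00231). *Bace2*, a membrane protease, had means of 119 and 103 CPM in members and 20.4 and 69.1 CPM elsewhere, with a difference of -1.996 ± 0.22. *Htra1*, a secreted protease that cleaves matrix, and *Crispld2* had -1.23 ± 0.16 and -0.96 ± 0.15. Of the 10, *Comp*, *Thbs4*, *Sbsn*, *Abca8b* and *Timp1* were also called against column group 8 alone, and *Bace2*, *Htra1* and *Crispld2* were not (adjusted p = 0.242, 0.304 and 0.639). Against column group 24 alone, with 415 cells, *Comp*, *Thbs4*, *Abca8b* and *Timp1* were not called (adjusted p = 0.987, 0.171, 0.857 and 0.719), with differences of 0.30, 2.65, 0.66 and -0.99. *Sbsn* was not called against column group 10 alone (adjusted p = 0.139), with a difference of 2.30.

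*Selp* and *Cd74* had differences of 3.93 ± 0.53 and 5.49 ± 0.80, and were not called against column group 8 alone (differences of 3.05 and 3.16, edgeR adjusted p = 0.0501 and 0.0524). *Cd74*, part of antigen presentation, was at 1.33, 2.49 and 3.26 CPM in WT, against 579, 143 and 2.20 CPM in *Arom hum* members. *Cd74* is itself a gene of the macrophage list, so being high in the same 2 mice as that list is no independent observation. Without members that held 3 or more UMIs of another cell type's list, neither *Cd74* nor *Selp* was called (adjusted p = 0.767 and 0.905). For *Cd74* that removal counted its own UMIs, so the lost call does not show where those UMIs came from. *Cxcl14* was among the 82 genes, with means of 371 and 2009 CPM in members, 339 and 633 CPM in the other groups and a difference of 1.54 ± 0.27 (adjusted p = 0.00742). Against column groups 8 and 10 alone its differences were 0.946 and 0.995, and it was not called (adjusted p = 0.219 and 0.578). Against column group 24 alone its difference was 2.35 (adjusted p = 0.00443). The leading genes *Dio2*, *C7* and *Mgp* were also among the 82, with differences of -0.95 ± 0.20, 0.90 ± 0.19 and 0.73 ± 0.16. Against column group 8 alone *C7* and *Mgp* were not called (differences of 0.41 and 0.54, adjusted p = 0.72 and 0.574). Without possible doublets *Mgp* had a difference of 0.25 (adjusted p = 0.735).

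**Figure D5:**
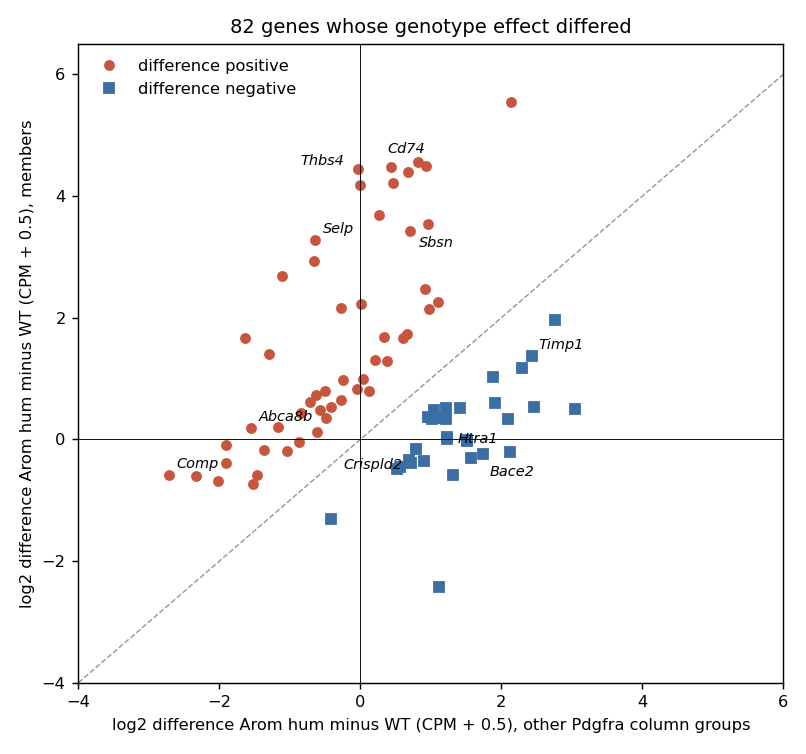
Difference between genotypes in log2(CPM + 0.5), *Arom hum* minus WT, in the members (vertical) and in the other *Pdgfra* column groups (horizontal) for the 82 genes whose effect differed. Red circles are the 51 genes with a positive and blue squares the 31 with a negative difference, the dashed line marks equal effects, and the 10 genes with the lowest p are named.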

How the data were processed

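The authors deposited 1 table of raw UMI counts for 16494 genes and 63647 cells, made with Cell Ranger 3.0.2 per the labels, against mm10 with human *CYP19A1* added. No normalization had been applied. Members were the cells of column group 26 with at least 1000 UMIs. The column groups follow the order of the columns, and the file gives no cell types. Counts were summed per mouse and scaled to CPM. Genotypes were compared with edgeR 4.0.16 in R 4.3.3 (TMM, filterByExpr, quasi-likelihood test, Benjamini-Hochberg adjustment, threshold 0.05). SEs follow from the test statistic. Differences between cell groups were fitted as an interaction with the mouse as a block. Shares and depth were compared with 2-sided exact permutation tests over 6 mice. No doublet caller was run. Members with 3 or more UMIs of another cell type's list (20 for myonuclei) were left out as an alternative. The scripts were tested on simulated data. DESeq2 1.42.0 was an alternative.

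The members and gene lists were chosen with earlier results of these data known. Named genes were the label markers, the 25 leading genes, genes called or, with fewer than 5 calls in a direction, the 10 with the lowest p, the 4 most abundant genes of a list and the called ones, and the 10 with the lowest p for the difference between cell groups. Tissue was handled on 3 dates, each with a WT mouse and an *Arom hum* littermate, but the sources do not say which numbers share a date, so the pairs are unknown and were not in the fit. P-values rest on 3 mice per genotype. Results for some of these genes are not reported here.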

Additional observations from a re-analysis of the deposited data

Results flagged for a closer look

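The effect of genotype differed between the members and the other *Pdgfra* column groups for 82 genes by the interaction test. The 10 with the lowest adjusted p were *Comp*, *Bace2*, *Thbs4*, *Htra1*, *Selp*, *Sbsn*, *Abca8b*, *Cd74*, *Timp1* and *Crispld2*. Their differences of log2 fold changes, members minus the others, were 2.16, -1.996, 3.73, -1.23, 3.93, 2.71, 1.69, 5.49, -1.07 and -0.96 in that order. For *Cd74* and *Selp*, WT members averaged 2.36 and 2.33 CPM, so these sizes rest on very few UMIs in WT. The macrophage list, of which *Cd74* is a gene, summed to 904 and 189 CPM over the members of *Arom hum* mice 1 and 2. No other result was raised for a closer look, and groups of 3 mice are too small for a test of outlying mice.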

How the results depend on the processing

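The 2 genotype calls became 354 with no filter on low counts, 68 with DESeq2, 5 within the limits of the study and 7 after thinning, and 0 to 413 when 1 mouse was left out. The same 2 genes were called with RLE size factors, every barcode and at least 2000 UMIs. Without possible doublets 2 genes were called, of which *Cxcl14* was 1, and *Slpi* did not pass the filter on low counts. With the replicate block there were 69 calls, 49 higher and 20 lower. Same-numbered mice had correlated deviations of 0.220, 0.0120 and 0.303, and WT mouse 2 had 0.0554 with *Arom hum* mouse 3. These values do not settle the pairs. The numbers were not read as pairs because the sources do not say which share a date. The 82 differences between cell groups became 243 with no filter and 38 to 266 with 1 mouse left out. Against column groups 24, 10 and 8 there were 6, 146 and 22, of which 4, 38 and 17 were among the 82. Without possible doublets there were 157, of which 60 were among the 82. The comparisons with column group 8 and with column groups 8, 10 and 24, and the removal of possible doublets for the difference, were chosen after seeing the data. The cause was not tested. *Bace2* reversed against column group 24, to 0.23.

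The difference in share, -0.0240 points, ran from -0.263 to 0.230 with 1 mouse left out, was -0.0240 with the replicate block and -0.772 within the limits of the study (exact permutation p = 0.4). It reversed without WT mouse 3 (0.230) and without *Arom hum* mouse 3 (0.0538). The difference in median UMIs was 285 over every barcode and ran from -1118 to 399.75 with 1 mouse left out, that in genes from -104 to 160 and that in mitochondrial percent from -0.323 to 0.186. With 3 mice a genotype and 120 to 247 members each, differences of genes with few UMIs rest on few molecules.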
